A study of Homo sapiens with 12 samples.

Results

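The comparison set lysine succinylation against histone H3 lysine 27 trimethylation in untreated HepG2/C3A cells, a hepatocellular carcinoma line. It used the 4 control samples of the 12 in the series that carried either antibody: 2 biological replicates with a pan-succinyllysine antibody (Ksu), which binds succinyl-lysine whatever the protein, and 2 with an antibody against H3K27me3. These cells had no sodium succinate and were taken at the 48-hour time point of the study, whose treated arm received 10 mM sodium succinate. CUT&Tag, the assay, uses an antibody to bring a transposase to chromatin and sequences the fragments that it cuts out. The 4 IgG samples were not analysed here, and whether the peaks were called against IgG is not given in the sources used here. The labels call the replicates biological but do not say whether they were separate cultures, and all came from 1 cell line.

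H3K27me3 is deposited by Polycomb repressive complex 2 (PRC2), through its catalytic subunits EZH1 and EZH2, and is removed by the Jumonji demethylases KDM6A and KDM6B. It typically forms broad domains over silent developmental genes. Lysine succinylation adds the succinyl group of succinyl-CoA to lysine, replacing a positive charge by a negative one. It is abundant on mitochondrial enzymes and also found on histones, and SIRT5 is its best known eraser. A pan-succinyllysine antibody does not tell one succinylated protein or residue from another.

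The peak lists of the control cells held 19133 and 5813 H3K27me3 peaks and 76702 and 382019 Ksu peaks on the 24 chromosomes (replicates 1 and 2 of each antibody). H3K27me3 peaks covered 199 and 117 Mb, or 6.45% and 3.79% of the chromosomes. Ksu peaks covered 80.4 and 185 Mb, or 2.60% and 6.0%. The total area was therefore similar for the antibodies (158 Mb ± 58.1 against 133 Mb ± 74.2, SD, n = 2 each), but the replicate that covered more was replicate 1 for H3K27me3 and replicate 2 for Ksu. Read depth is unknown for these lists. The signal came in whole steps, each library with a step of its own, and the median peak height was 83 and 149 steps for H3K27me3 and 33 and 12 steps for Ksu. Ksu replicate 2 listed peaks as low as 2 steps, against a lowest peak of 9 steps in Ksu replicate 1 and of 25 and 45 steps in the H3K27me3 libraries. Ksu replicate 2 thus differed from the other libraries in both the number and the height of its peaks. Ranges of the main results with each library left out are given at the end. Counts by gene list are not given without it, and those of genes without Ksu can turn on it.

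The marks differed most plainly in peak width. The median H3K27me3 peak was 6767 bp wide in replicate 1 and 14406 bp in replicate 2 (10586 bp ± 5402, SD, n = 2). The median Ksu peak was 977 bp in replicate 1 and 444 bp in replicate 2 (710 bp ± 377, SD, n = 2). On geometric means H3K27me3 peaks were 15.0 times as wide, a log2 difference (Ksu minus H3K27me3) of -3.91 against a pooled replicate SD of 0.79. Both Ksu libraries lay below both H3K27me3 libraries, which gives the smallest p that 2 against 2 libraries allow (exact two-sided permutation p = 0.333, also after Benjamini-Hochberg adjustment over the 3 tests run). No difference between the antibodies could therefore pass 0.05, and differences are read against the replicate SD.

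The width distributions hardly met. Peaks of 10 kb or more held 61.9% and 91.3% of the bases covered by H3K27me3 and none of those covered by Ksu. The widest Ksu peaks measured 5497 and 3247 bp, whereas the widest H3K27me3 peaks reached 215465 and 283145 bp. Peaks under 1 kb made up 52.4% and 95.6% of Ksu peaks, and the H3K27me3 lists held none. Ksu peaks were also more closely spaced in replicate 2, with a median gap to the next peak of 3876 bp against 15632 bp in replicate 1, while the gaps of H3K27me3 were 12297 and 36316 bp. With 5813 peaks taken from every library by total signal, the width difference was -3.48.

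**Figure D1:**
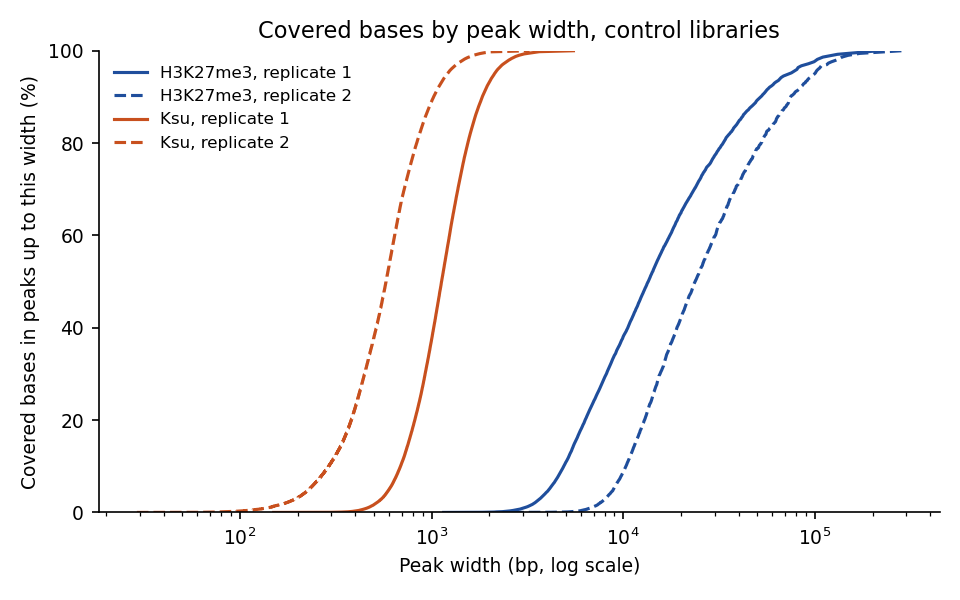
Share of covered bases (%, y axis) in peaks up to a given width (bp, log scale, x axis) for the 4 control libraries, blue for H3K27me3 and orange for Ksu, solid for replicate 1 and dashed for replicate 2. The median covered base lay in a peak of 13500 and 23708 bp for H3K27me3 and of 1127 and 578 bp for Ksu, so the curves of the antibodies stand apart.

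Agreement within and between the marks was measured next. Bases shared by the H3K27me3 replicates made up 0.508 of the bases covered by either (Jaccard index), where independent placement would give 0.0244. For the Ksu replicates the index was 0.0323, 1.75 times the 0.0185 of independent placement. Peaks of Ksu replicate 2 covered 10.3% of the bases of Ksu replicate 1, and peaks of Ksu replicate 1 covered 4.48% of those of replicate 2. The 4 pairs of unlike antibodies had indices of 0.0246 to 0.0376, or 1.13 to 1.66 times independent placement. Base for base, Ksu replicates thus overlapped each other about as much as they overlapped H3K27me3.

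Over larger windows the Ksu replicates resembled each other. The rank correlation of Ksu cover between replicates was 0.196 over 288300 windows of 10 kb, 0.607 over 28830 windows of 0.1 Mb, 0.812 over 2883 windows of 1 Mb and 0.839 over 584 windows of 5 Mb. H3K27me3 replicates already reached 0.688 at 10 kb and 0.888 at 1 Mb. Between the marks the 1-Mb correlation was 0.0127 and -0.0286 for Ksu replicate 1 and -0.275 and -0.280 for Ksu replicate 2. Within single chromosomes the medians were lower, at -0.260 and -0.282 for Ksu replicate 1 and -0.391 and -0.381 for Ksu replicate 2, while the Ksu replicates kept 0.791. These correlations are across windows that share libraries and chromosome copy number, and are given as descriptions. In the windows of 1 Mb the Ksu libraries were alike in their broad distribution, and that distribution ran against H3K27me3 within chromosomes.

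Gene density separated the marks at this scale. Each 1-Mb window was given its number of protein-coding genes, and the windows were averaged with the bases covered in each as weights. H3K27me3 lay where there were 11.4 and 12.4 genes per Mb (11.9 ± 0.768, SD, n = 2), and Ksu where there were 4.78 and 4.96 (4.87 ± 0.131, SD, n = 2). All windows together averaged 6.45 genes per Mb, so H3K27me3 was above and Ksu below the average in both replicates. The difference of -7.03 genes per Mb was larger than the pooled SD of 0.551, with no overlap between antibodies (exact permutation p = 0.333, the smallest possible). It was -9.14 with equal numbers of peaks, -8.62 with equal covered length, -2.85 over windows with at least 1 peak counted alike, and -6.48 to -7.57 when any 1 library was left out. On each of the 23 chromosomes compared (1 to 22 and X) both Ksu libraries had a lower gene density than both H3K27me3 libraries. On gene-rich chromosome 19 the values were 18.2 and 22 for Ksu against 28.3 and 30.2 for H3K27me3, and on gene-poor chromosome 13 they were 2.83 and 2.65 against 6.75 and 7.54.

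The contrast was steepest in windows without genes. Relative cover is the cover of a class of windows divided by the cover of all chromosomes in the same library. For these classes only the 2883 of 3077 windows with a peak in any library were used. Ksu replicate 2 had a peak in all 2883. Windows without a peak were left out, so values can be higher than over all windows of a class. In the 359 windows with a peak and no protein-coding gene, relative cover was 0.0664 and 0.0389 for H3K27me3. For Ksu it was 1.29 and 1.42 there. In the 201 windows with 21 or more genes H3K27me3 reached 2.17 and 2.52, and Ksu 0.475 and 0.584. Windows with 2 genes or fewer held 15.0% plus 31.4% of the Ksu bases in replicate 1 and 16.6% plus 29.8% in replicate 2, for windows with no gene and with 1 or 2 genes. For H3K27me3 the same shares were 0.778% plus 8.54% and 0.457% plus 6.4%. Of 2883 windows with a peak in any library, relative cover was higher in both Ksu libraries than in both H3K27me3 libraries in 1725 (59.8%), and higher in both H3K27me3 libraries in 759 (26.3%). The first group averaged 3.51 genes per Mb and the second 13.6, and 337 windows of the first group but 1 of the second had no gene.

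**Figure D2:**
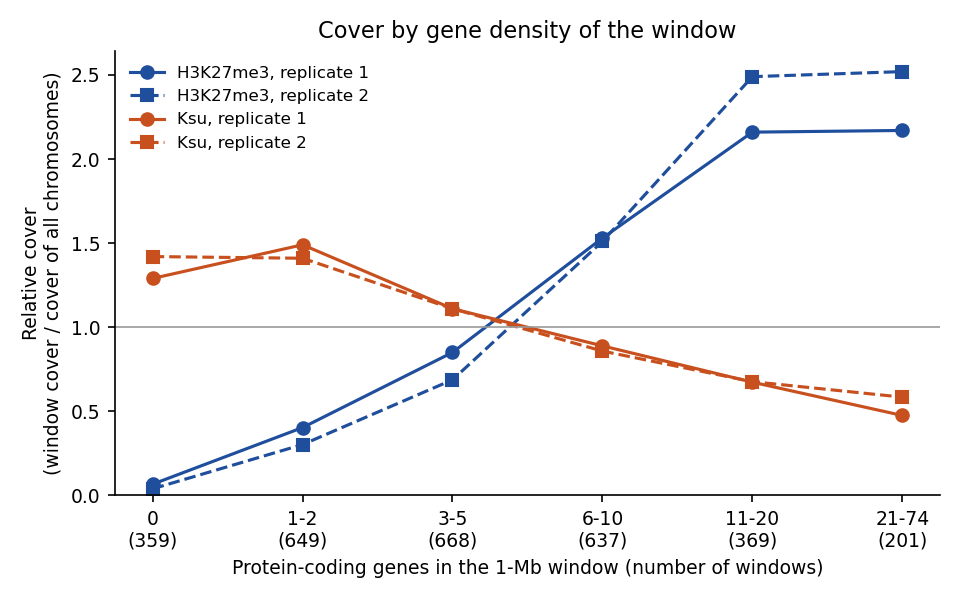
Relative cover (window cover divided by the cover of all chromosomes, y axis) in 1-Mb windows grouped by their number of protein-coding genes (x axis, number of windows in brackets), with 1 line per control library. Only windows with a peak in any library were used. H3K27me3 rises from 0.0664 and 0.0389 in windows without genes to 2.17 and 2.52 in the densest, and Ksu falls from 1.29 and 1.42 to 0.475 and 0.584.

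Chromosomes differed in both marks. Chromosome 20 had the highest relative cover by H3K27me3, at 3.14 and 3.69, and the highest by Ksu in replicate 1, at 2.91, with 1.25 in replicate 2. For Ksu replicate 2 the highest was chromosome 2, at 1.38, where Ksu replicate 1 had 2.37. HepG2 cells are known to carry extra copies of some chromosomes, 2 and 20 among them, and the part of copy number in these values was not tested. Chromosome 22 had relative covers of 1.73 and 1.93 for H3K27me3 and of 0.148 and 0.375 for Ksu, the reverse of chromosome 4, with 0.414 and 0.362 for H3K27me3 and 0.846 and 1.24 for Ksu. On chromosome X both marks were below average, at 0.139 and 0.0796 for H3K27me3 and 0.122 and 0.531 for Ksu. When each chromosome had equal weight, the difference in gene density was -6.23 genes per Mb.

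Gene bodies held a smaller share of Ksu than of H3K27me3. Of the bases under Ksu peaks, 38.9% and 38.4% were in protein-coding gene bodies, against 44.9% and 49.6% of the bases under H3K27me3 peaks, where gene bodies occupied 40.9% of the chromosomes. The difference of -8.60 percentage points exceeded the pooled SD of 2.36 and the libraries did not overlap (exact permutation p = 0.333). It was -15.4 with equal numbers of peaks and -4.69 when all genes of the reference table were used, and on 17 of 23 chromosomes both Ksu libraries were below both H3K27me3 libraries. Outside genes the order of the marks changed with distance. Within 10 kb of a gene body, relative cover was 1.93 and 2.01 for H3K27me3 and 0.706 and 0.756 for Ksu. From 10 to 100 kb it was 1.61 and 1.42 for H3K27me3 and 1.01 and 0.999 for Ksu. Between 100 and 500 kb it was 0.541 and 0.460 for H3K27me3 and 1.46 and 1.42 for Ksu, and beyond 500 kb 0.0600 and 0.0344 against 1.23 and 1.37. These zones were measured in the 1-Mb windows that held a peak of any library.

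Gene starts were taken from a RefSeq promoter table that matched 15842 of the 20037 protein-coding genes, with the outermost start of each gene. H3K27me3 peaks lay over 15.3% and 8.46% of these starts, 2.38 and 2.23 times the share of the chromosomes they covered. Ksu peaks lay over 1.45% and 4.08% of them, 0.555 and 0.679 times. The profiles around starts had different shapes. In the first 1 kb after the start, H3K27me3 had a relative cover of 2.35 and 2.21, against 1.54 and 1.5 in the bin 10 to 11 kb upstream. Ksu was at 0.449 and 0.654 there, against 0.663 and 0.683 in that upstream bin. In Ksu replicate 1 that first bin was the lowest of the profile, followed by 0.466 from 5 to 4 kb upstream. In Ksu replicate 2 some bins away from the start were lower, such as 0.627 from 4 to 3 kb upstream. Neither Ksu profile had its maximum at the start.

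**Figure D3:**
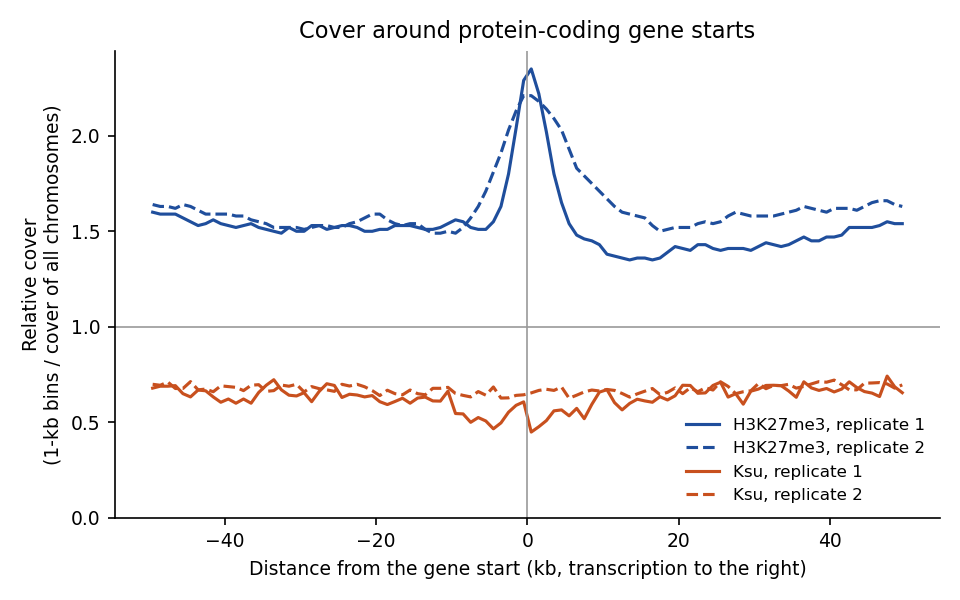
Relative cover (1-kb bins divided by the cover of all chromosomes, y axis) against the distance from 15842 protein-coding gene starts (kb, transcription to the right, x axis) in the 4 control libraries. Both H3K27me3 lines peak at the start, at 2.35 and 2.21 in the first 1 kb, and both Ksu lines stay below 1 over the 50 kb on each side, at 0.449 and 0.654 in that bin.

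Starts under both H3K27me3 libraries and no Ksu peak numbered 1193 (7.53% of the starts measured), and starts under both Ksu libraries and no H3K27me3 peak numbered 12 (0.0757%). Counted whatever the other mark, 1285 starts (8.11%) lay under both H3K27me3 libraries and 17 (0.107%) under both Ksu libraries. Starts under both marks in all 4 libraries numbered 2, those of ADORA1, an adenosine receptor, and TMEM235, a membrane protein gene, which are named after their values were seen. The base composition of the groups differed. The 300-base promoters (250 bases before to 50 after the start) of the H3K27me3 group held a median of 20 CG dinucleotides and those of the Ksu group 3, where the median of all 15842 was 22 and 98.1% held at least 1. The 3 rests on the 12 starts of the Ksu group, and how many such starts independent placement would give was not computed. Over all starts under a Ksu peak the medians were 11 in replicate 1 (229 starts) and 16 in replicate 2 (646 starts). Per library, Ksu peaks lay over 2.67% and 6.34% of the starts with 5 or fewer CG and over 0.712% and 3.47% of those with 31 or more. In Ksu replicate 2 the lowest share was 2.90%, at 21 to 30 CG. The values for H3K27me3 were 15.2% and 7.91% at 5 or fewer, 26.3% and 15.6% at 6 to 10, and 16.2% and 9.23% at 31 or more, with no steady fall. Relative to the share of the chromosomes covered, Ksu was at 1.02 and 1.06 and H3K27me3 at 2.35 and 2.09 at 5 or fewer CG. At 31 or more CG Ksu was at 0.273 and 0.578 and H3K27me3 at 2.51 and 2.44.

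The promoters of the groups can be compared letter by letter. The first set shows, of the starts that the promoter table holds, the first genes named below for H3K27me3 without Ksu with a start under both H3K27me3 libraries, and the second the starts under both Ksu libraries with the widest peaks, a choice made after values were seen. Sequences are from RefSeq (GRCh38.p14), 5′ to 3′ along the gene, with every CG in capitals (the motif reads the same on both strands). DMBX1, a homeobox gene of the developing brain (chr1:46489586-46489885, plus strand), lay under H3K27me3 peaks of 76243 and 57680 bp and has 37 CG. TBX1, a T-box factor of pharyngeal and heart development (chr22:19756453-19756752, plus strand), lay under peaks of 50187 and 77351 bp and has 22. LHX2, a LIM homeobox factor of forebrain and eye (chr9:124011518-124011817, plus strand), lay under peaks of 38178 and 49398 bp and has 30.
DMBX1: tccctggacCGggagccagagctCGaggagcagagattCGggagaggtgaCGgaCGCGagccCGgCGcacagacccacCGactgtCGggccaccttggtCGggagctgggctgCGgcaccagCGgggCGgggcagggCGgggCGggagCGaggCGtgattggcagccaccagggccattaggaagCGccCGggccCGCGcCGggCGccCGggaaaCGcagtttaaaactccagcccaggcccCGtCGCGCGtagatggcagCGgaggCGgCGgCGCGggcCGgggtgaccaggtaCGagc
TBX1: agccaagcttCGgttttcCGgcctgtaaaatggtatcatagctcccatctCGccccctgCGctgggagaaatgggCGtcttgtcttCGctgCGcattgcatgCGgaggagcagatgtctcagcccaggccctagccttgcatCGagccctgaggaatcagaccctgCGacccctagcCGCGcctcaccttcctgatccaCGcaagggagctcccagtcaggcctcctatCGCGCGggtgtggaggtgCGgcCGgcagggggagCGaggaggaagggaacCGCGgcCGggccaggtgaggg
LHX2: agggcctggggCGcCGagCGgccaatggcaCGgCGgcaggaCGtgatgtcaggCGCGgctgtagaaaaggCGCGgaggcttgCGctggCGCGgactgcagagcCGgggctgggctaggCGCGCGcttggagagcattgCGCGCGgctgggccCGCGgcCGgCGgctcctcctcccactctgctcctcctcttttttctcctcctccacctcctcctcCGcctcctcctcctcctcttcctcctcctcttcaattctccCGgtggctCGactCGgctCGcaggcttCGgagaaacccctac
The Ksu set had shorter peaks and fewer CG. TAF11L12, a member of the TAF11-like gene family (chr5:17610142-17610441, plus strand), lay under Ksu peaks of 2509 and 1193 bp and has 2 CG. Reads from near-identical copies of that family could have been placed on any copy, so its value is uncertain. CTNNA2, a catenin of neuronal cell contacts (chr2:79185127-79185426, plus strand), lay under peaks of 2370 and 1070 bp and has 3. MEPE, a matrix protein gene of bone (chr4:87821148-87821447, plus strand), lay under peaks of 1344 and 843 bp and has 3.
TAF11L12: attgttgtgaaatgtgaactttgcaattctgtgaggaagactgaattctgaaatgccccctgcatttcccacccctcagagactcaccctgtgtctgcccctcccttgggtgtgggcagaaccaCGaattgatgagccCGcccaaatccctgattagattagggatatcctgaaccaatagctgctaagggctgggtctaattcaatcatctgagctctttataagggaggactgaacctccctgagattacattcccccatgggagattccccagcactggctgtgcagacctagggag
CTNNA2: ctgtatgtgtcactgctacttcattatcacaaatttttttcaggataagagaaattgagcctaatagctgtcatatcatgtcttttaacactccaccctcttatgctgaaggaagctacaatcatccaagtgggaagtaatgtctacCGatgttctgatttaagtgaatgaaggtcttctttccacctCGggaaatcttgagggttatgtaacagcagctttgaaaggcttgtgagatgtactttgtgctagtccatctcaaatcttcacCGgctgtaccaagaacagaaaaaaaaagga
MEPE: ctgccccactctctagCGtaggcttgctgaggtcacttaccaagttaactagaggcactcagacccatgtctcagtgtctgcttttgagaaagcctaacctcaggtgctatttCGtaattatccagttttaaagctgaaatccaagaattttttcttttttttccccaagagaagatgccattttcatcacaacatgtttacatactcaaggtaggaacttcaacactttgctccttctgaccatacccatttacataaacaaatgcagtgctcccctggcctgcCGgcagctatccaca

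A gene was next counted as overlapped by a library when a peak touched its body by at least 1 bp. Peaks of 2 libraries in the same gene need not share a base. The base overlap of replicates (Jaccard index) was 0.0323 for Ksu and 0.508 for H3K27me3, so Ksu in both libraries does not mean the same peaks. Both H3K27me3 libraries overlapped 2679 genes (13.4% of 20037) and both Ksu libraries 6563 (32.8%). Without H3K27me3 replicate 2 the first count was 4691, and without Ksu replicate 1 the second was 14240. Genes with H3K27me3 in both libraries and Ksu in neither numbered 427 (2.13%), and genes with Ksu in both and H3K27me3 in neither numbered 4372 (21.8%). All 4 libraries overlapped 1233 genes (6.15%), and none overlapped 4597 (22.9%). Among the other patterns of 2 libraries, replicate 1 of H3K27me3 with replicate 2 of Ksu held 675 genes, and replicate 2 of H3K27me3 with replicate 1 of Ksu held 4. These counts followed the number of peaks. Without Ksu replicate 2 the H3K27me3 group grew to 1399, without Ksu replicate 1 the Ksu group grew to 10383, and with equal numbers of peaks the order reversed, to 2098 for H3K27me3 and 317 for Ksu. At equal covered length they were 557 and 4331.

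Gene length separated the groups. The H3K27me3 genes without Ksu had a median length of 5.13 kb (quartiles 2.69 and 9.15) and the Ksu genes without H3K27me3 one of 80.4 kb (40.1 and 155), where the median of all genes was 24.1 kb. Genes without either mark were short too, at 6.28 kb. A longer gene has more room for a peak, so cover per base was compared as well. In genes under 10 kb relative cover was 2.63 and 2.94 for H3K27me3 and 0.494 and 0.663 for Ksu. In the 69 genes of 1000 kb or more it was 0.301 and 0.236 for H3K27me3 and 1.73 and 1.57 for Ksu. From the shortest to the longest class relative cover thus fell in both H3K27me3 libraries and was higher at the long end in both Ksu libraries. All 69 of these very long genes were overlapped by both Ksu libraries (against 32.8% of all genes) and 12 (17.4%, against 13.4%) by both H3K27me3 libraries. From 300 to 1000 kb the share with both Ksu libraries was already 98.2%.

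**Figure D4:**
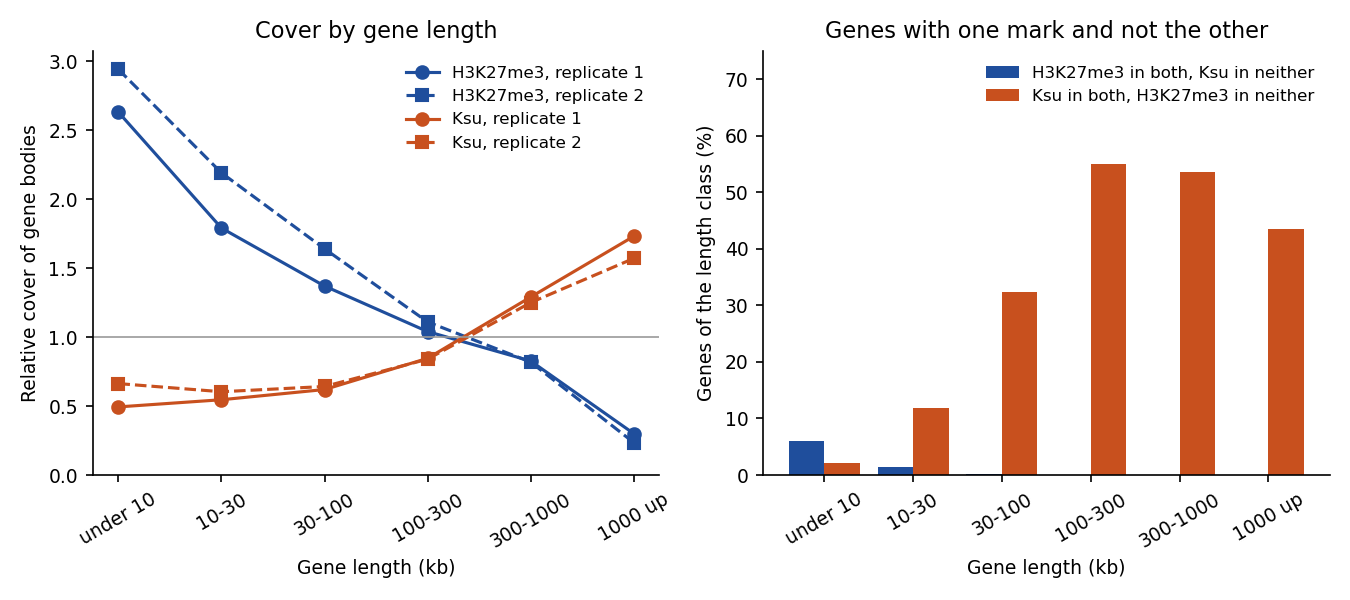
Left, relative cover of gene bodies (y axis) by gene length (kb, x axis) in the 4 control libraries. Right, percent of the genes of each length class with H3K27me3 in both libraries and Ksu in neither (blue, 5.95% under 10 kb, and 0 from 100 kb up) and with Ksu in both and H3K27me3 in neither (orange, 2.16% under 10 kb and 54.9% from 100 to 300 kb).

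H3K27me3 without Ksu mostly took in short genes whole. The median gene of that group was covered over 100% of its length in both H3K27me3 libraries, at a median length of 5.13 kb. Over all genes with H3K27me3 in both libraries the median covers were 70.6% and 57.0%, at a median length of 28.9 kb. Ranked by the bases covered in the lower replicate, the first was ONECUT3 (chromosome 19, 1753506 to 1780988), a homeobox factor, covered over 89.2% and 100% of its 27.5 kb. PLCB2 (chromosome 15, 40284256 to 40307935), a phospholipase C of blood cells, was covered over 100% in both. Further developmental factors followed, DMBX1 at 94.6% and 82.5%, TBX1 at 79.7% and 91.1%, and LHX2 at 92.1% and 100%. DBH, which makes noradrenaline from dopamine, was covered over 100% and 76.9%. ALOXE3, an epidermal lipoxygenase, had 78.3% and 84.9%, and NRROS, a gene of microglia and macrophages, 99.1% and 80.7%. IFT27, an intraflagellar transport gene, was covered over 100% in both. By the rule of the group, no base of these genes was under a Ksu peak in either library. Those named lay between 17.9 and 27.5 kb in length.

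Ksu without H3K27me3 covered small parts of genes, with medians of 2.47% and 4.07% of the body over the 4372 genes. Ranking by bases covered favours long genes, and those named are much longer than the median of the group. CTNNA3 (chromosome 10, 65912523 to 67763594), an alpha-catenin gene of 1851 kb, came first, with 122608 and 195260 bp under Ksu peaks, or 6.62% and 10.5% of its body. THSD7B had 13.6% and 13.3%, and EYS, a photoreceptor gene, 5.98% and 11.2%. Most of the others are known from the nervous system. They were NKAIN2 (10.1% and 12%), NRG3, a neuregulin (9.12% and 11.7%), CNTNAP5, a cell adhesion gene (14.6% and 11%), and DLG2, a postsynaptic scaffold (3.84% and 10.8%). PCDH15, a protocadherin of hair cells, had 4.89% and 10.6%, and ERBB4, a neuregulin receptor, 7.16% and 10.8%. Those named were 896 kb or longer, and over all genes Ksu covered 2.46% and 5.60% of the bases. At 50% of the gene body in both libraries, 3 genes had Ksu and no H3K27me3, named after their values were seen: OR6V1, an olfactory receptor (100% and 64.9%), TAF11L12 (100% and 60.7%) and LOC124902393 (100% and 76.8%), all under 2 kb.

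Genes with both marks were ranked by their lowest cover in any of the 4 libraries. SFTPA2, a lung surfactant protein gene, led, with 100% and 82.8% under H3K27me3 peaks and 22.1% and 25.6% under Ksu peaks. EHD3, an endocytosis gene, had 48.0% and 44.5% for H3K27me3 and 19.6% and 17.4% for Ksu. GHRHR, the receptor of growth hormone-releasing hormone, had 87.9% and 100% against 16.9% and 17.6%. KCNMB1, a potassium channel subunit of smooth muscle, had 63.0% and 63.8% against 27.6% and 16.1%. LCN8, a lipocalin gene, was covered over 100% by H3K27me3 in both and over 25.4% and 15.7% by Ksu. In each of these 5 genes both H3K27me3 values were above both Ksu values.

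HOX, PAX and WNT genes had H3K27me3 in most members. Of 39 HOX genes, the body-axis homeobox factors, 33 (84.6%, against 13.4% of all genes) had H3K27me3 in both libraries. Ksu in both was found in 3 (7.69%, against 32.8%), and 13 (33.3%, against 2.13% of all genes) had H3K27me3 without Ksu. The median length of the 39 was 3.79 kb. Of genes under 10 kb, 11.8% had H3K27me3 in both libraries, 3.65% Ksu in both and 5.95% H3K27me3 without Ksu. The share of HOX genes with Ksu in both was thus below that of all genes but not below that of short genes. Ksu replicate 1 touched 3 HOX genes and Ksu replicate 2 touched 21, so the count of 13 turned on replicate 2. HOXA7, HOXA10 and HOXA11 were covered over 100% by H3K27me3 in both replicates, with no Ksu base. The HOX genes with Ksu in both libraries were HOXB3 (5.10% and 7.61%), HOXC4 (6.46% and 3.10%) and HOXC10 (23.6% and 2.40%), each also covered over 100% by H3K27me3. All 9 PAX genes, paired-box factors of organ formation, had H3K27me3 in both libraries (100%, against 13.4% of all genes). Of the 9, 8 (88.9%, against 32.8%) had Ksu in both, at a median length of 62.9 kb. PAX7 had 99.1% in both replicates under H3K27me3 and 5.84% and 9.03% under Ksu, and PAX1 had 84.4% and 94.7% against 9.85% and 21.4%. Of 19 WNT ligands, secreted signals of patterning, 17 (89.5%, against 13.4% of all genes) had H3K27me3 and 6 (31.6%, against 32.8%) Ksu in both libraries. None had either mark alone by these counts, which turned on Ksu replicate 2. Ksu replicate 2 touched all 19 and Ksu replicate 1 touched 6. WNT10A, with 100% in both H3K27me3 libraries, had 5.91% and 10.7% under Ksu peaks. Among 18 neurogenic bHLH factors 10 (55.6%, against 13.4% of all genes) had H3K27me3 and 1 (5.56%, against 32.8%), ATOH8, had Ksu in both libraries. H3K27me3 without Ksu was found in 5 (27.8%, against 2.13%). The median length was 2.47 kb, so the shares of genes under 10 kb given above apply here too. NEUROD2 and BHLHE23 were covered over 100% by H3K27me3 with no Ksu base.

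Other factor families were less uniform. Of 6 GATA factors 4 (66.7%, against 13.4% of all genes) had H3K27me3 in both libraries, and GATA3 was covered over 100% by H3K27me3 and over 7.03% and 4.81% by Ksu. Among 17 T-box genes 6 (35.3%, against 13.4% of all genes) had H3K27me3 and 4 (23.5%, against 32.8%) had Ksu, at a median length of 17.0 kb. Of genes from 10 to 30 kb, 17.6% had Ksu in both libraries. TBXT (brachyury, the mesoderm factor) had 100% H3K27me3 in both and the highest lower Ksu cover of the family, 11.8% and 25.1%, whereas TBX18 had no H3K27me3 and 3.47% and 6.69% Ksu. Forkhead genes numbered 51, with 17 (33.3%, against 13.4% of all genes) for H3K27me3 and 9 (17.6%, against 32.8%) for Ksu. Of them 8 (15.7%, against 2.13% of all genes) had H3K27me3 without Ksu and 5 (9.80%, against 21.8%) the reverse. Their median length was 4.90 kb. Of genes under 10 kb, 3.65% had Ksu in both libraries, 5.95% H3K27me3 without Ksu and 2.16% the reverse. FOXF1 and FOXB2 were covered over 100% by H3K27me3 with no Ksu base, and FOXI1 had 100% H3K27me3 with 17.9% and 15.4% Ksu. Of 19 SOX genes 5 (26.3%, against 13.4% of all genes) had H3K27me3 in both libraries, SOX8 and SOX14 over 100% and without Ksu. At a median length of 4.87 kb, 2 (10.5%, against 32.8%), SOX5 and SOX6, had Ksu in both.

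Channel and receptor genes of excitable cells included members with either mark and with both. Of 95 potassium channel genes 40 (42.1%, against 13.4% of all genes) had H3K27me3 and 52 (54.7%, against 32.8%) had Ksu in both libraries, and 23 had both. KCNG1, a modifying channel subunit, was covered over 100% by H3K27me3 and over 20.9% and 11.9% by Ksu. Of 93 neurotransmitter receptor genes 26 (28.0%, against 13.4% of all genes) had H3K27me3, 53 (57.0%, against 32.8%) had Ksu, and 12 had both. Ksu without H3K27me3 was found in 30 (32.3%, against 21.8% of all genes). DRD1, a dopamine receptor, had 22.6% and 43.4% of its 4.15 kb under Ksu peaks and no H3K27me3. The potassium channel and neurotransmitter receptor genes were longer than the genes at large, with medians of 40.5 and 60.8 kb. Of genes from 30 to 100 kb, 46.0% had Ksu in both libraries and 32.3% had Ksu without H3K27me3. Of 53 clustered protocadherin genes 38 (71.7%, against 32.8% of all genes) had Ksu and 22 (41.5%, against 13.4%) had H3K27me3 in both libraries. Their median length was 110 kb, and of genes from 100 to 300 kb 81.4% had Ksu in both libraries. The bodies of clustered protocadherin genes overlap each other, so 1 peak counts for several. KRT1, KRT13 and KRT14, among the 149 keratin and keratin-associated genes, were covered over 100% by H3K27me3. Of that list 30 (20.1%, against 13.4% of all genes) had H3K27me3 in both libraries and 5 (3.36%, against 32.8%) had Ksu. The median length of the list was 1.15 kb. Of genes under 10 kb, 11.8% had H3K27me3 and 3.65% Ksu in both libraries, so the Ksu share of the list was near that of short genes.

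Large families of similar genes had a smaller share of members with a mark in both of its libraries than all genes had. Of 390 olfactory receptor genes, the odour receptors of the nose, 6 (1.54%, against 13.4% of all genes) had H3K27me3 and 39 (10.0%, against 32.8%) had Ksu in both libraries, at a median length of 2.98 kb. Ksu covered 1.95% and 6.88% of their bases, 0.747 and 1.15 times the cover of all chromosomes. Of genes under 10 kb 3.65% had Ksu in both libraries, and their relative Ksu cover was 0.494 and 0.663. Ksu replicate 2 touched 200 of the 390 olfactory receptor genes, and 168 had no peak of any library. Of 240 ZNF genes on chromosome 19, 2 (0.833%, against 13.4% of all genes) had H3K27me3 and 26 (10.8%, against 32.8%) had Ksu in both libraries. Ksu replicate 2 touched 157 of the 240, and 78 had no peak of any library. Ksu cover of the ZNF genes was 0.521% and 2.57%, or 0.20 and 0.429 times that of all chromosomes. Olfactory receptors and zinc finger genes each have near-identical relatives, which makes the values of single members uncertain. None of 68 replication-dependent histone genes, whose median length was 0.494 kb, had Ksu in both libraries, against 3.65% of genes under 10 kb.

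Plasma protein and housekeeping genes had no member with H3K27me3 in both libraries. Of 58 plasma protein genes, which hepatocytes secrete, none had H3K27me3 in both libraries and 16 (27.6%, against 32.8% of all genes) had Ksu in both. Their median length was 14.2 kb, and of genes from 10 to 30 kb 17.6% had Ksu in both libraries. RBP4, the retinol carrier, had 7.69% and 12.9% and ITIH2, an inter-alpha-trypsin inhibitor, 5.51% and 4.92% under Ksu peaks, while APOA4, an apolipoprotein, had 28.9% and 10.3% of its 2.60 kb. Of 16 housekeeping genes 2 (12.5%, against 32.8% of all genes) had Ksu in both libraries, B2M (3.18% and 9.01%) and VCP (8.75% and 2.74%), and none had H3K27me3. Their median length was 6.53 kb, and of genes under 10 kb 3.65% had Ksu in both libraries. Among 55 cytochrome P450 genes 5 (9.09%, against 13.4% of all genes) had H3K27me3 and 15 (27.3%, against 32.8%) had Ksu, at a median length of 21.9 kb. CYP2E1, an ethanol-oxidising liver enzyme, had 70.0% and 71.5% H3K27me3 and 0 and 3.30% Ksu, and CYP2C19, a drug-metabolising one, had no H3K27me3 and 9.29% and 9.59% Ksu.

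Genes that make, use or respond to the marks were examined last among the lists. Of 27 genes of succinate and succinyl-CoA metabolism and desuccinylation none had H3K27me3 in both libraries and 11 (40.7%, against 32.8% of all genes) had Ksu, with a median length of 35.8 kb. DHTKD1, a 2-oxoadipate dehydrogenase subunit, had 5.28% and 5.90% Ksu, SLC13A3, a dicarboxylate transporter, 6.63% and 4.27%, and OGDHL 6.35% and 8.54% with 58.7% and 0 under H3K27me3 peaks. Of 15 genes of PRC2 and the H3K27 demethylases none had H3K27me3 in both libraries and 6 (40.0%, against 32.8% of all genes) had Ksu, among them JARID2 with 4.14% and 5.27%, EZH1 with 1.99% and 6.60% and EED with 1.63% and 2.90%. Of 27 JmjC genes 13 (48.1%, against 32.8% of all genes) had Ksu in both libraries and 1 (3.70%, against 13.4%), HR, had H3K27me3 in both (99.7% and 56.7%, with 11.6% and 0 under Ksu peaks). Median lengths were 48.5 kb for the PRC2 and H3K27 demethylase genes and 55.7 kb for the JmjC genes. Of genes from 30 to 100 kb, 46.0% had Ksu in both libraries. Summed over each of these lists, Ksu cover was below that of all chromosomes in both libraries, at 0.846 and 0.647 times for succinate metabolism, 0.451 and 0.493 times for PRC2 and H3K27 demethylases, and 0.485 and 0.516 times for JmjC genes.

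**Figure D5:**
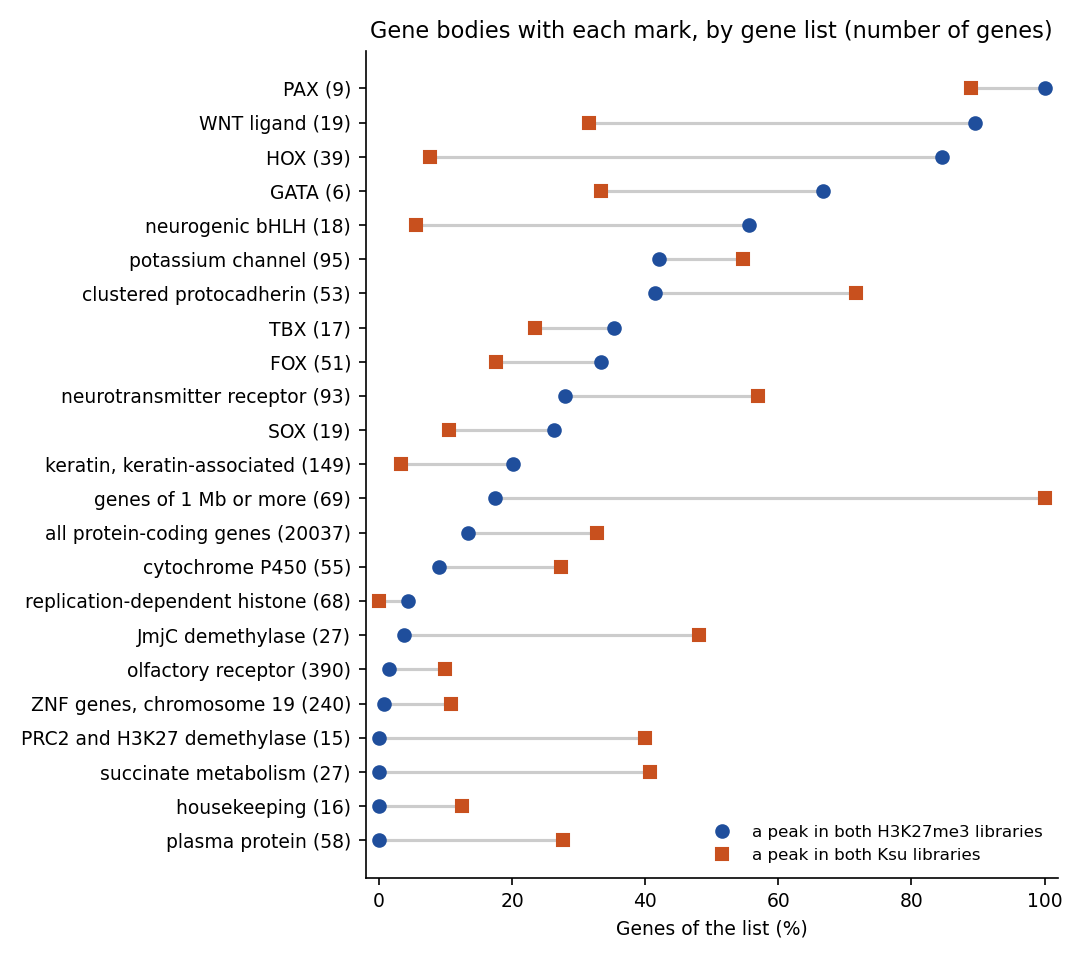
Percent of the genes of each list (number of genes in brackets, y axis) with a peak in both H3K27me3 libraries (blue circles) and in both Ksu libraries (orange squares). HOX genes stand at 84.6% and 7.69%, genes of 1 Mb or more at 17.4% and 100%, and all protein-coding genes at 13.4% and 32.8%. The lists differ in gene length, and of genes under 10 kb 11.8% had H3K27me3 and 3.65% Ksu in both libraries.

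Ksu cover was finally measured inside H3K27me3 regions, the 106 Mb under peaks of both H3K27me3 libraries, and outside both. Inside, Ksu peaks covered 4.13% of the bases in replicate 1 and 6.87% in replicate 2, against 2.49% and 5.94% outside. The log2 ratios of inside to outside were 0.73 and 0.21, positive in both replicates. Outside bases of the same 1-Mb windows gave 0.73 and 0.39. The excess in Ksu replicate 2 depended on the peaks used. There the log2 ratio was -0.06 with the upper 50% of peaks by total signal, -0.19 at equal covered length and -0.62 with equal numbers of peaks, while Ksu replicate 1 stayed between 0.66 and 0.88. Peaks of Ksu replicate 1 were 1088 bp wide inside and 967 bp outside (medians) with heights of 32 and 33 steps. In Ksu replicate 2 the widths were 434 and 445 bp and the heights 11 and 12 steps.

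Ksu cover was also followed by distance from the edge of an H3K27me3 stretch. From 0 to 2 kb inside an H3K27me3 stretch relative Ksu cover was 1.56 and 1.13, from 5 to 10 kb 1.70 and 1.17, and deeper than 10 kb 1.49 and 1.12. In the first 5 kb outside it was 1.10 and 0.988, and from 20 to 100 kb away 0.976 and 0.922. The share of stretches with a Ksu peak grew with their width, but a wider stretch has more room for a peak. In Ksu replicate 1 the share was 36.8% of stretches of 10 to 20 kb, 54.3% of those of 20 to 50 kb and 76.9% of wider ones. In Ksu replicate 2, with its closer peaks, it was 84.1%, 97.0% and 100%. Cover per base had no steady rise with width. Relative Ksu cover was 1.92 and 1.10 (replicates 1 and 2) in stretches under 5 kb, and 1.41 and 1.11 in those of 50 kb or more. Of the 6987 stretches under both H3K27me3 libraries, 1249 (17.9%) had no Ksu peak in either library, but none of the 212 stretches of 50 kb or more was without one. Of 24089 stretches under both Ksu libraries, with a median of 310 bp, 21740 (90.2%) met no H3K27me3 peak. Peaks of either H3K27me3 library covered 210 of the 3087 Mb, so most bases of the chromosomes lay outside them as well.

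The longest stretches with one mark show the same difference in scale. For H3K27me3 without Ksu they measured 31525, 31519 and 30938 bp. They lay on chromosome 1 from 36567018 to 36598542, in no protein-coding gene and 83.7 kb from CSF3R, on chromosome 9 from 133622515 to 133654033 over part of DBH, and on chromosome 7 from 27163402 to 27194339 over HOXA9, HOXA10, HOXA11 and the read-through gene HOXA10-HOXA9. For Ksu without H3K27me3 they measured 1828, 1815 and 1716 bp. They lay on chromosome 10 from 10827187 to 10829014 within CELF2, an RNA-binding protein gene, on chromosome 9 from 75353283 to 75355097 outside genes, 206 kb from OSTF1, and on chromosome 18 from 43783963 to 43785678, 506 kb from SYT4. The windows of 1 Mb that held the H3K27me3 stretches had 15, 23 and 15 protein-coding genes, and those of the Ksu stretches 1, 3 and 1.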

How the data were processed

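CUT&Tag peak lists of 4 control libraries were used, 2 per antibody; grouping followed the sample titles. Per the submitters' processing notes, peaks were called with SEACR on genome build hg38; the deposited lists are named as stringent calls, and each belongs to a single library. The aligner, the scaling, the control track and the threshold are not given in the sources used here. The deposited signal of a peak (its total and its highest value) was scaled by the authors by library; 100% of the highest values were whole multiples of 1 step per library, within 0.02, so heights are given in steps and total signal was used only to rank peaks within a list. Read depth is unknown, so no counting intervals are given. The labels do not mention separate cultures, so replicate spread may be technical.

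Peaks on the 24 chromosomes (3087 Mb, to the last peak or gene end) were compared with Python 3.11.15, numpy 2.4.6, pandas 2.3.3 and scipy 1.17.1. Genes and starts came from RefSeq tables of GRCh38.p14, with 20037 protein-coding genes; the overlap minimum was 1 bp, and a window took the genes whose midpoints it held. Interval code was tested on simulated data. Differences of means over 4 libraries were tested by exact two-sided permutation over 6 arrangements; counts over genes, overlaps and ratios were not tested. Named genes were the 10 of each group with most bases covered in the lower replicate, the 5 of both marks with the highest lowest cover, the 3 longest stretches per mark, and, from 22 gene lists, up to 3 genes per mark with the highest lower cover. Some genes that the rule selects are not reported here. Members, lists and rules were chosen with earlier results of these data known. Alternatives were stricter, equal-number, equal-length, minimum-width and merged peak sets, other windows, gene sets and cover minimums, each library left out, and a replicate block; equal weight for each chromosome was added after seeing the data.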

Additional observations from a re-analysis of the deposited data

Results flagged for a closer look

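Peaks on sequences outside the 24 chromosomes entered no comparison. They numbered 16 and 5 in the H3K27me3 libraries and 121 and 531 in the Ksu libraries, more than the 3 that a count of 0 allows, and were not set against the IgG samples here.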

How the results depend on the processing

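Over the 7 main results, 58 of 82 alternatives left the value within its spread (counts within 1.5 times) and 24 moved it further. The spread was the pooled replicate SD for differences of means. For base overlap it was the SD of the 4 pairs of unlike antibodies, which share libraries. For the log2 Ksu ratio inside H3K27me3 regions it was the SD of the 2 Ksu libraries (0.734 and 0.212). That spread was so wide that every alternative of the ratio counted as within it. The 58 include the replicate block of the differences of means, which could not move them. No difference of means changed sign, but the order of the counts of genes with one mark reversed with equal numbers of peaks, and the log2 Ksu ratio inside H3K27me3 regions was below 0 in Ksu replicate 2 with 3 peak sets (-0.06, -0.19 and -0.62). The gene body difference (percentage points) was -12.7 with the upper 50% of peaks by total signal, -15.4 with equal numbers of peaks, -14.6 at equal covered length and -4.69 with all genes of the reference table. The gene density difference (genes per Mb) was -8.05, -9.14 and -8.62 with those 3 peak sets, -2.85 over windows with any peak, -10.3 over the 10% of windows with most cover, -5.26 with windows of 5 Mb and -6.23 with each chromosome weighted equally, the last chosen after seeing the data. The log2 width difference was -4.98 at equal covered length. Base overlap of the marks, 0.0301 on average, was 0.0180, 0.00331 and 0.0161 with those 3 peak sets. Genes with H3K27me3 and no Ksu numbered 2098 with equal numbers of peaks and 777 with peaks of at least 500 bp. Genes with Ksu and no H3K27me3 numbered 2803 with the 50% of peaks, 317 with equal numbers, and 92 and 3 at 10% and 50% cover. The cause was not tested.

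With each library left out, the values ran from -4.47 to -3.34 for width, -10.9 to -6.25 for gene bodies, -7.57 to -6.48 for gene density, 438 to 1399 and 4380 to 10383 for the genes with one mark, 0.0258 to 0.0344 for overlap and 0.212 to 0.734 for the log2 Ksu ratio inside H3K27me3 regions. H3K27me3 genes without Ksu numbered 780 without H3K27me3 replicate 2. Same-numbered replicates were not shown to be paired (r = 0.0702 over windows). The replicate block changed only the test of the differences of means, so their values were fixed in advance. Its exact two-sided sign-flip p was 0.5, the smallest that 4 arrangements allow. Base overlap of same-numbered replicates was 0.0291. Unknown depth limits every count of genes without a mark.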
